A study of Homo sapiens with 6 samples.

Results

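The regions described here were R-loop peaks that lay deep inside long protein-coding genes of SH-SY5Y cells. Merging the peaks of the 6 samples gave 75622 regions, of which 34776 held a peak in 3 or more of the 6 peak lists. A region was kept where it met that minimum, lay wholly inside a RefSeq protein-coding gene, and was at least 20 kb from both ends of every protein-coding and lncRNA gene. The rule used position and the number of lists, not the hairpin, and it left 3743 deep regions, 10.8% of the regions in 3 or more lists. They fell in 1314 host genes.

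An R-loop is a 3-stranded structure in which RNA pairs with 1 strand of the DNA and leaves the other strand unpaired. R-loops form mostly where RNA is being made, typically near promoters with an excess of G over C and near transcript ends, and less often far inside a gene, where a polymerase must have travelled a long way or started anew. RNase H enzymes and helicases remove them, and R-loops that persist in long genes are known as sites of conflict between transcription and replication.

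The data came from DRIP-seq, in which nucleic acids are cut with 5 restriction enzymes (BsrGI, EcoRI, HindIII, SspI and XbaI), DNA-RNA hybrids are pulled down with the S9.6 antibody, and their DNA is sonicated and sequenced. SH-SY5Y is a human neuroblastoma line. The series concerns stable loss of TDP-43, which binds RNA and leaves the nucleus of affected neurons in amyotrophic lateral sclerosis and frontotemporal dementia. Cells of the shT2 group (3 samples) carried the lentiviral hairpin shT2, and cells of the shNC3 group (3 samples) carried the lentiviral hairpin shNC3. Both hairpins were expressed from the U6 promoter of the same vector, and per the labels' protocols the cells were selected with 2 µg/mL puromycin for 2 weeks and then kept in 1 µg/mL. No label states the target of either hairpin, and by their names shT2 was taken for the TDP-43 knockdown and shNC3 for the control. The protocol describes a separate cell harvest for each replicate, but no label says that replicates were infected separately. What the p-values weigh is thus the spread among these 6 samples alone, and that spread may be technical. Among the transcription factors that define noradrenergic neuroblastoma cells, PHOX2A, HAND1, HAND2, GATA2, GATA3, ISL1 and TFAP2B carried a peak within 2 kb of their 5′ end in every list, and the enzyme gene DBH carried none there in any list.

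The peak lists differed in depth. The depth recovered from the peaks' own fold enrichments and p-values was 3.31, 3.45 and 3.08 fragments per base in shT2 replicates 1 to 3, against 1.79, 1.65 and 1.74 in shNC3 replicates 1 to 3, a ratio of means of 1.9. Depth and hairpin cannot be told apart in this design. Lists thinned to equal depth, which held 41871 to 43598 peaks for shT2 and 42651 to 44057 for shNC3, are therefore quoted beside many of the main counts, though not all. Covered bases overlapped more within a hairpin (Jaccard index 0.71 to 0.718 in shT2 and 0.676 to 0.687 in shNC3) than between hairpins (0.552 to 0.568).

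The sequences printed here are those of the promoters of 4 host genes and of microRNAs encoded inside deep regions. Their part in the results was not tested. The promoters belong to genes in which all or most deep regions differed between the hairpins: ALK and PRKCA, whose deep regions were longer in shT2, and MYH9 and RASA3, whose deep regions were longer in shNC3. Each is the 250 bases before the gene's start in the RefSeq annotation of GRCh38.p14, on the gene's strand, and capitals mark runs of 4 or more G or of 4 or more C.
ALK, chr2:29921587-29921836, minus strand: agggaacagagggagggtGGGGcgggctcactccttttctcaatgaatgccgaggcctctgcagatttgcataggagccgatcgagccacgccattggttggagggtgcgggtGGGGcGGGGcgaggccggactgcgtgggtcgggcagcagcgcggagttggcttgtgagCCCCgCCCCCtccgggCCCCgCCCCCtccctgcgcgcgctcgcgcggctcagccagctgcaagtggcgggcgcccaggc
PRKCA, chr17:66302363-66302612, plus strand: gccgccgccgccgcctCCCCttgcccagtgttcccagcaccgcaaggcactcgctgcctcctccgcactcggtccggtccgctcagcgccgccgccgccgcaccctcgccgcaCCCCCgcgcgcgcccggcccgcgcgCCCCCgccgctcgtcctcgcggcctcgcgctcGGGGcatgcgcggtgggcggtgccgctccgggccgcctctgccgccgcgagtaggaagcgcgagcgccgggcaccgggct
MYH9, chr22:36387968-36388217, minus strand: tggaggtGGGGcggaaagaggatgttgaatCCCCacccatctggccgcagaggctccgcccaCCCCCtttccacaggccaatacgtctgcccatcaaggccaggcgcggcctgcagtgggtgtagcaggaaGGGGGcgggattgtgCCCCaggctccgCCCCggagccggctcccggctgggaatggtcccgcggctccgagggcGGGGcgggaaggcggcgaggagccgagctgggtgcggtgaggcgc
RASA3, chr13:114132624-114132873, minus strand: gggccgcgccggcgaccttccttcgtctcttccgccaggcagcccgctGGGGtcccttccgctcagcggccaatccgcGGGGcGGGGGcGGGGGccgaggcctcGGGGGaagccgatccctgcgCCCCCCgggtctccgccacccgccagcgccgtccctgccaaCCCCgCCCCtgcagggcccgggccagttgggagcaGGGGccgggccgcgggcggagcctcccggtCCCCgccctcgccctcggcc

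All 4 are rich in G and C. The G+C content was 71.6% in the ALK promoter, 82.0% in PRKCA, 71.6% in MYH9 and 81.2% in RASA3. The excess of G over C, as a fraction of all G and C on the gene's strand, was 0.117 for ALK and 0.128 for MYH9, and it ran the other way at -0.2 for PRKCA and -0.103 for RASA3. A run of 4 or more G or C (GGGG or CCCC, which finds the motif on both strands) was common: 92.1% of 15813 coding promoters in the table held one, as did 96.6% of the 1106 host gene promoters that matched. Median G+C content was 67.0% for the host promoters and 62.4% for all coding promoters.

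MicroRNAs are short RNAs that silence messenger RNAs through pairing of their seed, bases 2 to 8, shown in capitals. The deep regions overlapped 12 microRNA genes, and 11 of them had mature sequences in the RefSeq table. The mature forms printed are those of MIR342, whose region held peaks in every shT2 list and in no shNC3 list, of MIR4785 and MIR6894, whose regions were present in all 6 lists and passed the test between hairpins, and of MIR218-2, whose region did not pass the test. They were chosen after their values were seen.
hsa-miR-342-5p: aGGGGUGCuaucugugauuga
hsa-miR-342-3p: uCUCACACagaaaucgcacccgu
hsa-miR-4785: aGAGUCGGcgacgccgccagc
hsa-miR-6894-5p: aGGAGGAUggagagcugggccaga
hsa-miR-6894-3p: uUGCCUGCccucuuccuccag
hsa-miR-218-5p: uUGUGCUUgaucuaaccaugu
hsa-miR-218-2-3p: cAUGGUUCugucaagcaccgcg
The 17 mature sequences of the 11 genes held 17 distinct seeds, so none shared a seed.

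The deep regions were narrow and clustered. Their median width was 1241 bp (quartiles 748 and 2240.5 bp, range 294 to 18037 bp), whereas regions within 2 kb of a gene end had a median width of 2235 bp. The median distance to the nearest gene end was 32.9 kb, and 175 regions were more than 100 kb from every gene end, with a largest distance of 394 kb. Neighbouring deep regions of 1 gene were a median of 2123 bp apart, so they are not independent of each other, and after restriction digestion a peak may run to the end of a cut fragment. The regions nearest the limit were those in DDX42 and MED15, just inside 20.0 kb, and in RNF10 and LAPTM4B, just outside it. Covered length in the DDX42 region was 956, 0 and 1426 bp in shT2, against 0, 0 and 958 bp in shNC3. The MED15 region was covered over 5972, 5491 and 6302 bp in shT2, against 6003, 6011 and 5455 bp in shNC3. The RNF10 region was covered over 903, 0 and 320 bp in shT2, against 417, 0 and 0 bp in shNC3, and the LAPTM4B region over 422, 414 and 627 bp in shT2, against 0 bp in every shNC3 sample.

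Deep regions were sparse in the longest genes. Of the 6694 coding genes with room for a deep region, 19.6% held one, and the 654 Mb that lay deep inside genes held 5.72 regions per Mb. The density was 23.3 per Mb in genes of up to 60 kb, 14.9 in genes of 60 to 100 kb, 10.2 in genes of 100 to 200 kb, 3.34 in genes of 200 to 400 kb, 2.31 in genes of 400 kb to 1 Mb and 0.553 in genes over 1 Mb. Of the 69 genes over 1 Mb, 15 held a deep region. RBFOX1 (2474 kb), PTPRD (2299 kb), DMD (2220 kb), DLG2 (2173 kb), MACROD2 (2058 kb) and CSMD1 (2060 kb) held none. CNTNAP2 (2304 kb), the longest host, held 1, and so did LRP1B (1900 kb). By chromosome, the density was highest on chromosome 19, with 47.3 per Mb, followed by chromosome 22 with 21.4, chromosome 17 with 17.9 and chromosome 16 with 12.4, and lowest on chromosome X with 1.59 and chromosome 18 with 1.42. Gene activity was not measured here, and its part in these densities was not tested.

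Within a host gene the regions lay mostly in the middle, as the rule requires of short genes. With the gene's length divided into 4 equal parts from the 5′ end, 10.2% of the 3161 pairs of a region and a host gene of known strand lay in the first part, 34.5% in the second, 37.5% in the third and 17.7% in the last, and the median distance from the 5′ end was 62.1 kb. Host genes often had an R-loop at their start as well. Among the 1106 hosts of known strand, 47.7% carried a peak within 2 kb of the 5′ end in all 6 lists, against 32.5% of all 15812 coding genes of known strand, and 23.4% carried none there in any list.

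Deep gene bodies took a larger part of the R-loop peaks in shT2 cells. Each list taken alone, without the minimum of 3 lists, had 12.6, 13.2 and 13.0% of its peaks deep inside coding genes in shT2 replicates 1 to 3, against 10.1, 9.39 and 9.83% in shNC3 replicates 1 to 3. The means were 13.0 ± 0.28% in shT2 and 9.78 ± 0.38% in shNC3 (SD, n = 3 each), a difference of 3.18 percentage points, with a two-sided exact permutation p of 0.1, the smallest that 3 samples against 3 allow. At equal depth the difference, shT2 minus shNC3, was 2.31 percentage points.

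The 3743 regions also took up more of the covered length in shT2. Their share of all covered bases was 5.98, 6.02 and 5.89% in shT2 replicates 1 to 3, against 4.41, 4.08 and 4.34% in shNC3 replicates 1 to 3. The shT2 mean of 5.96 ± 0.065% was 1.39 times the shNC3 mean of 4.28 ± 0.17% (SD, n = 3 each), and every shT2 sample lay above every shNC3 sample. These shares are a description with no test, since the minimum of 3 lists admitted more regions through shT2 alone than through shNC3 alone. Over the 2594 regions with a peak in both hairpins the shares were 4.83, 4.85 and 4.77% in shT2, against 4.08, 3.77 and 4.00% in shNC3. Over the 983 in all 6 lists they were 3.39, 3.36 and 3.38% in shT2, against 3.11, 3.01 and 3.08% in shNC3. In these pooled cells, a change in how many cells held an R-loop and a change in R-loops per cell cannot be told apart. At equal depth the means were 5.56 ± 0.067% in shT2 and 4.2 ± 0.15% in shNC3. Set against regions within 2 kb of a gene end, covered length in the deep regions was 0.0991 ± 0.0022 of theirs in shT2 and 0.0659 ± 0.0040 of theirs in shNC3. The number of deep regions with a peak was 3077, 3133 and 3068 in shT2, against 2238, 2012 and 2206 in shNC3. The median fold enrichment of the deep peaks, as the authors' peak caller gave it, lay between 5.01 and 5.13 in the shT2 samples and between 5.10 and 5.27 in the shNC3 samples.

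**Figure D1:**
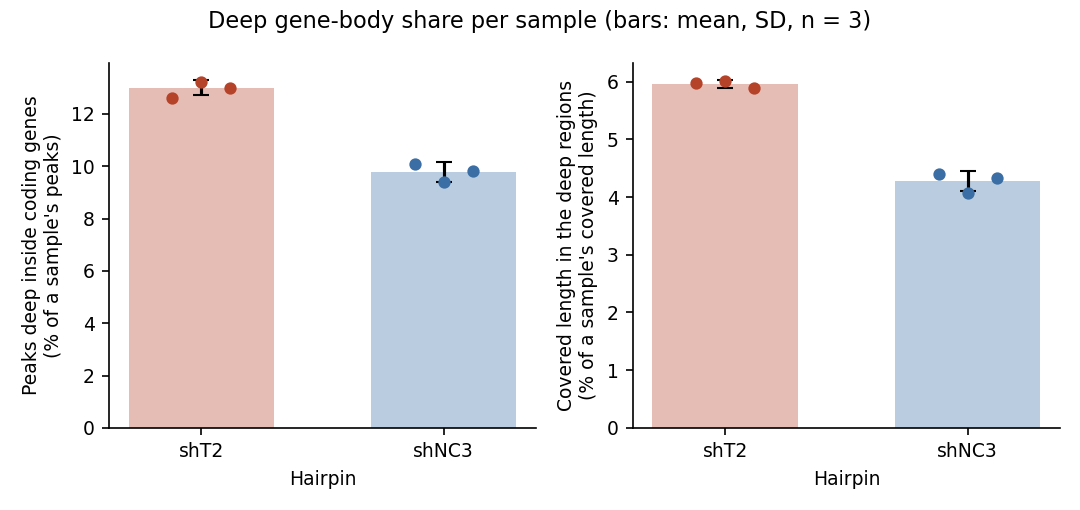
Percent of a sample's peaks that lay deep inside coding genes (left) and percent of its covered length in the 3743 deep regions (right), for shT2 and shNC3. Points are samples, bars are means and whiskers SD (n = 3 each). All 3 shT2 samples lie above all 3 shNC3 samples in both panels, with means of 13.0 against 9.78% and of 5.96 against 4.28%.

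Presence fell into few classes. A peak stood in all 6 lists in 983 deep regions (26.3%, against 44.7% of all 34776 regions). It stood in 3 of 3 shT2 lists and 0 of 3 shNC3 lists in 901 (24.1%, against 12.8% of all regions), and in 0 of 3 shT2 lists and 3 of 3 shNC3 lists in 248 (6.6%, against 6.21% of all regions). The share lost in shT2 was thus near that of all regions. Among intergenic regions 20.5% were in the 3 shT2 lists alone and 10.8% in the 3 shNC3 lists alone. Within 2 kb of a gene end these shares were 7.72% and 5.45%. Regions present in 1 hairpin alone met the minimum of 3 lists through that hairpin and had to differ, which holds for the comparison regions as well. At equal depth 594 regions were present in shT2 alone and 278 in shNC3 alone.

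**Figure D2:**
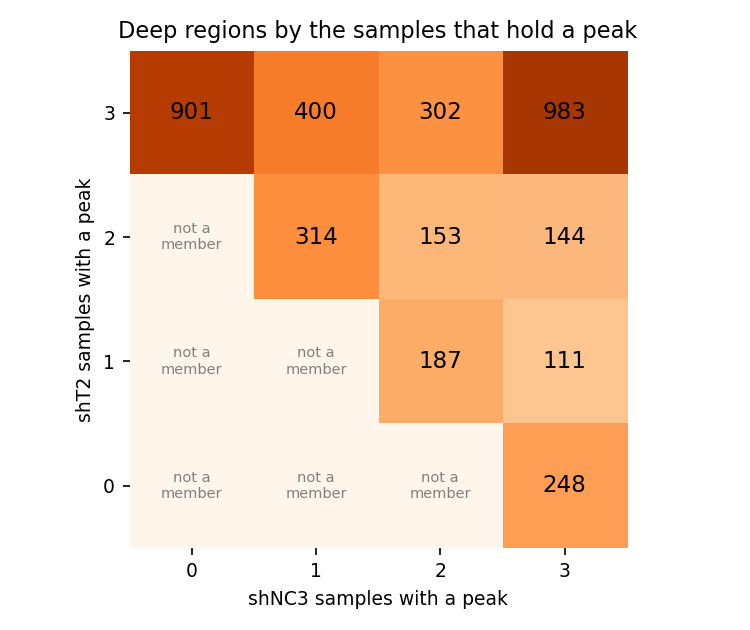
Number of deep regions by how many shT2 samples (rows) and shNC3 samples (columns) held a peak, with darker cells for more regions. The corners hold 983 regions with a peak in all 6 samples, 901 in the 3 shT2 samples alone and 248 in the 3 shNC3 samples alone, and cells under 3 samples are empty by rule.

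Each region was tested on its covered length, scaled to the mean total of the 6 samples, as log2(scaled bp + 200) with limma over all 34776 regions and a Benjamini-Hochberg adjusted p of 0.05. Covered length rose in shT2 in 1258 deep regions (33.6%, against 21.3% of all regions tested) and fell in 397 (10.6%, against 16.2% of all regions tested), and 2088 did not pass. The median log2 difference, shT2 minus shNC3, was 0.61 over the deep regions and 0.03 over all regions. Without scaling these medians were 0.70 and 0.16, and at equal depth 0.44 and -0.02. Of the regions that rose, 901 had a peak in the 3 shT2 lists and no shNC3 list, and of those that fell, 248 had a peak in the 3 shNC3 lists and no shT2 list. Every region of these 2 kinds passed the test, so its p adds nothing to the pattern of presence and is not given below. At equal depth 884 regions rose and 396 fell. Of the 1258 that rose in the full lists, 862 (68.5%) did so at equal depth too, as did 354 (89.2%) of the 397 that fell.

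The difference was smaller where both hairpins had a peak. Over the 2594 deep regions with a peak in at least 1 sample of each hairpin, the median log2 difference was 0.34, against -0.05 over all 28182 such regions. Of these deep regions 357 rose (13.8%, against 10.6% of all such regions) and 149 fell (5.74%, against 12.3%). Over the 983 deep regions in all 6 lists it was 0.06, with 162 higher (16.5%, against 10.1% of all regions in all 6 lists), 73 lower (7.43%, against 17.0%) and 748 not passing the test. Regions within 2 kb of a gene end had a median of -0.11, regions inside genes 2 to 20 kb from an end 0.18, and intergenic regions 0.37, so a positive median was shared by intergenic regions. The difference between these classes was not tested.

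**Figure D3:**
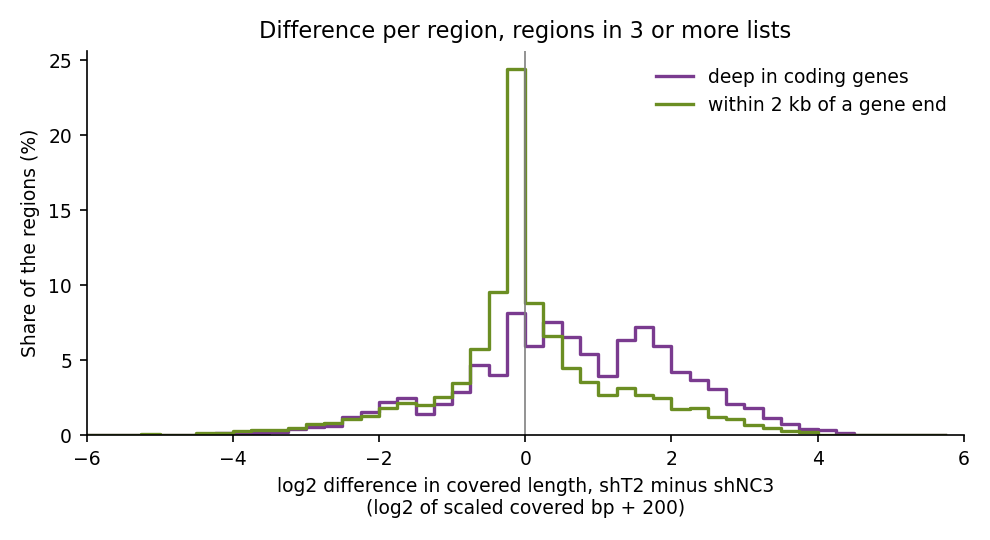
Share of regions (y axis, %) by log2 difference in covered length, shT2 minus shNC3 (x axis), for the deep regions and for regions within 2 kb of a gene end. The gene-end regions peak just below 0, with a median of -0.11, and the deep regions spread to the right, with a median of 0.61.

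The 8 regions with the largest rise lay in 8 genes, and all were listed at 0 in every shNC3 sample, so no fold is given. They lay in TTC28, FARP2 (a guanine nucleotide exchange factor of the FERM family), RNFT2, CTBP2 (a transcriptional corepressor), RAB11FIP4 (a Rab11 effector), TNRC6A (an Argonaute partner in microRNA silencing), EXOC4 (an exocyst subunit) and ALK. The TTC28 region (chr22:28023711-28029779), 653 kb from the gene's 5′ end, was covered over 6069, 4886 and 3392 bp in shT2, against 0, 0 and 0 bp in shNC3. The FARP2 region (chr2:241440204-241444770) was covered over 4131, 4567 and 4262 bp in shT2, against 0 bp in each shNC3 sample. In RAB11FIP4 (chr17:31487198-31491288) the same 4091 bp were covered in each shT2 sample and none in shNC3. In TNRC6A (chr16:24799456-24804223) the covered length was 3538, 4768 and 3889 bp in shT2, against 0 bp in each shNC3 sample. The regions in RNFT2, CTBP2, EXOC4 and ALK were covered over 3244 to 5065 bp in shT2 and over 0 bp in shNC3.

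The 8 regions with the largest fall were listed at 0 in every shT2 sample. The widest, in NLRC5, a transactivator of MHC class I genes (chr16:57038611-57048992), was covered over 0, 0 and 0 bp in shT2, against 9738, 4882 and 8483 bp in shNC3. MYH9, which encodes the heavy chain of non-muscle myosin IIA, held a pair of them. The larger (chr22:36320668-36325274), 65.0 kb from the 5′ end, was covered over 0 bp in each shT2 sample, against 4368, 4301 and 4368 bp in shNC3. The DDAH1 region, in a gene for an enzyme that breaks down methylated arginines, was covered over 0 bp in each shT2 sample, against 3519, 3527 and 3527 bp in shNC3. Regions in ABCC3 (an organic anion exporter), KSR1 (a scaffold of the RAF-MEK-ERK cascade), KIFC3 (a kinesin) and LTBP2 (of the latent TGF-beta binding protein family) were covered over 0 bp in shT2 and over 2174 to 3905 bp in shNC3.

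Among the widest regions present in all 6 lists, those in TSNARE1, SIPA1L3 and ZC3H3 did not pass the test, and those in CLIP2 and FBXL18 fell. The region in TSNARE1, a gene of the SNARE family (chromosome 8), was covered over 17483, 17907 and 17145 bp in shT2, against 15619, 14720 and 15541 bp in shNC3, which gave a log2 difference of 0.04 with an SE of 0.03 (adjusted p by limma = 0.378) after scaling. Its groups did not overlap before scaling, and it passed the test without scaling (0.19) and at equal depth (0.11). Thinning to equal depth left peak widths as deposited, so it cannot show how depth acts on the width of a region. The region in SIPA1L3, a Rap GTPase-activating protein, was covered over 15263 bp in each shT2 sample, against 14329, 13856 and 13940 bp in shNC3, a scaled log2 difference of -0.04 (SE 0.05, adjusted p = 0.570) that reversed to 0.12 without scaling. The CLIP2 region, in a microtubule linker gene, was covered over 9115, 9489 and 10429 bp in shT2, against 12032, 11468 and 12648 bp in shNC3 (log2 difference -0.47, SE 0.07, limma adjusted p = 0.00515). In CLIP2 every shT2 sample lay below every shNC3 sample, and the part of depth in this was not tested. The ZC3H3 region had a log2 difference of -0.17 (adjusted p = 0.0588), and the FBXL18 region one of -0.16 (adjusted p = 0.0452), a call lost in 14 of 17 alternative settings, equal depth among them.

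Regions of 1 gene moved together. Of the 1314 hosts, 585 held 1 deep region and 205 held 5 or more. In 156 hosts at least 3 regions passed the test, and these were all higher in shT2 in 115 hosts, all lower in 19 and mixed in 22. Of the 2752 pairs of called regions that shared a host, 96.1% had the same direction, where 63.5% of all pairs of called regions did. Hosts with many called regions, such as PRKCA with 29, weigh more than others in this percentage. Neighbouring regions also share fragments and a gene, so these pairs are a description.

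The 6 hosts with the most deep regions differed in how they moved. Their counts are to be read against the 33.6% of all deep regions that rose and the 10.6% that fell. ZMIZ1, a transcriptional coactivator of the PIAS-like family (chr10:79068966-79316519), held 44 regions, of which 31 were present in all 6 lists. They were covered over 111, 119 and 105 kb in shT2, against 85.1, 71.8 and 84.0 kb in shNC3, and 7 rose and 0 fell. VAV2, a guanine nucleotide exchange factor (chr9:133761894-133992324), held 36 regions with 1 higher and 7 lower. The VAV2 regions were covered over 53.9, 53.0 and 48.3 kb in shT2, against 59.4, 49.7 and 56.7 kb in shNC3, and these ranges overlap. After scaling they did not, with 52.0, 48.1 and 47.2 kb in shT2, against 59.7, 56.1 and 59.1 kb in shNC3. GSE1, a coiled-coil protein found with HDAC corepressors, held 27 regions with 9 higher and 2 lower, and covered 73.0, 74.2 and 69.1 kb in shT2, against 49.5, 41.7 and 52.1 kb in shNC3. MAD1L1, a spindle checkpoint gene, held 25 regions with 4 higher and 2 lower, and covered 31.7, 29.5 and 25.8 kb in shT2, against 19.0, 16.3 and 23.1 kb in shNC3. Thinned to equal depth, 7 of 43 ZMIZ1 regions tested rose and 1 fell, and 1 of 32 in VAV2 rose and 6 fell. In GSE1 7 of 22 rose and 2 fell, and in MAD1L1 3 of 23 rose and 2 fell.

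The deep regions of PRKCA and MSI2, both on chromosome 17, were covered over a greater length in shT2. PRKCA, the gene of protein kinase C alpha (chr17:66302613-66810743), held 35 deep regions, of which 29 rose and 0 fell, and 26 lacked a peak in all 3 shNC3 samples. Together they were covered over 34.1, 32.7 and 29.3 kb in shT2, against 2.92, 1.97 and 1.19 kb in shNC3. At equal depth 21 of the 35 PRKCA regions could be tested, of which 16 rose. MSI2, which encodes the RNA-binding protein Musashi 2 (chr17:57255851-57701581), held 30 regions, of which 17 rose, 0 fell and 13 did not pass. Many of the 30 also held a peak in shNC3. The MSI2 regions were covered over 37.3, 38.4 and 35.7 kb in shT2, against 9.03, 3.97 and 6.47 kb in shNC3. At equal depth 12 of the 26 MSI2 regions tested rose. In both genes every shT2 sample lay far above every shNC3 sample in summed length. Regions that met the minimum of 3 lists through 1 hairpin alone had to differ. They enter these sums, here and for the hosts below, so the sums are a description with no test.

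ALK, a receptor tyrosine kinase that is mutated in part of neuroblastomas (chr2:29192774-29921586), held 18 deep regions. All 18 rose, and 17 of them lacked a peak in all 3 shNC3 samples. They were covered over 26.7, 30.2 and 26.1 kb in shT2, against 0.377, 0 and 0 kb in shNC3, or 26.2 ± 1.0 kb in shT2 and 0.126 ± 0.22 kb in shNC3 after scaling (SD, n = 3 each). The leading ALK region (chr2:29821182-29825951), 98.0 kb from the 5′ end, was covered over 3529, 3703 and 4057 bp in shT2, against 0 bp in each shNC3 sample. At equal depth 11 ALK regions could be tested and all 11 rose.

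MYH9, RASA3 and COL5A1 were the counterparts. The 15 deep regions of MYH9 (chr22:36281280-36387967) all fell, and 14 had no peak in any shT2 sample. They were covered over 0, 0.372 and 0 kb in shT2, against 26.7, 25.4 and 26.5 kb in shNC3. RASA3, a Ras GTPase-activating protein (chr13:113977783-114132623), held 9 deep regions that all fell, covered over 0, 0 and 0.323 kb in shT2, against 11.2, 10.7 and 12.4 kb in shNC3. COL5A1, a fibrillar collagen chain (chr9:134641803-134844843), held 9 that all fell, covered over 0.392, 0.814 and 0 kb in shT2, against 10.2, 7.55 and 11.4 kb in shNC3. At equal depth all 15 regions of MYH9, all 9 of RASA3 and all 9 of COL5A1 fell as well.

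**Figure D4:**
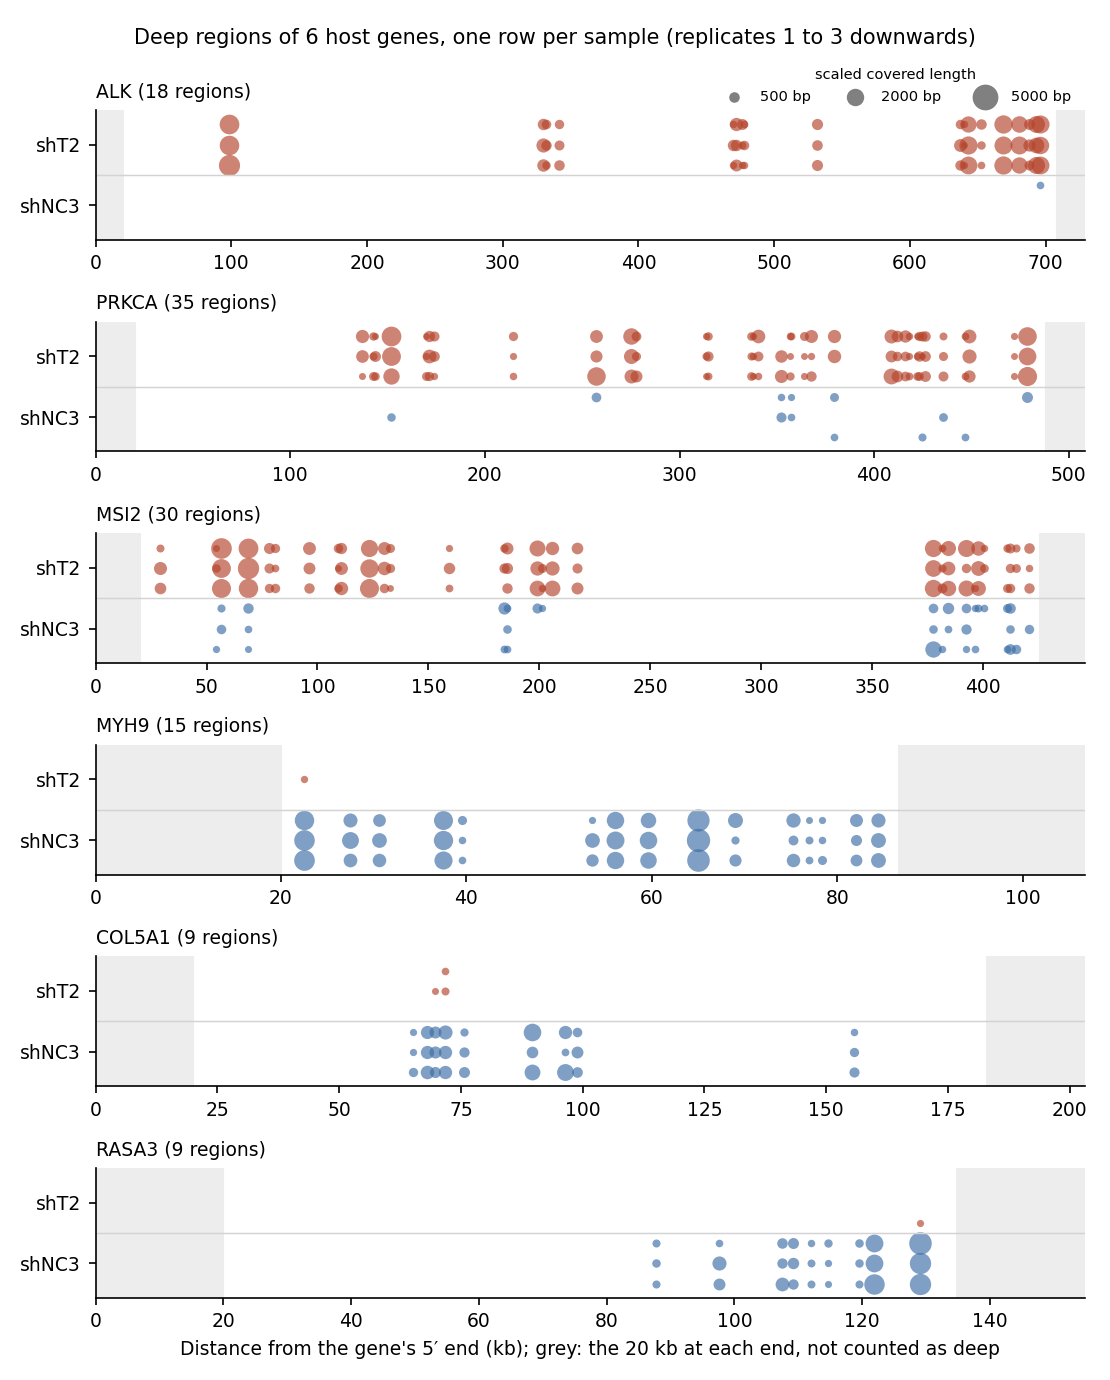
Deep regions of ALK, PRKCA, MSI2, MYH9, COL5A1 and RASA3 by distance from the gene's 5′ end in kb (x axis), with 3 rows for shT2 replicates 1 to 3 above 3 rows for shNC3 replicates 1 to 3. Each circle is a region with a peak in that sample, with an area that grows with scaled covered length, and the grey bands are the 20 kb at each gene end that the rule leaves out. Circles of ALK and PRKCA stand mostly in the shT2 rows, and those of MYH9, COL5A1 and RASA3 mostly in the shNC3 rows. MSI2 fills the shT2 rows and also has circles in every shNC3 row.

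The start of the gene was set against its deep regions in windows of 2 kb on either side of the 5′ end, which the rule leaves out. Of 7303 such windows with a peak in 3 or more lists, 8.01% were higher in shT2 and 22.0% lower, with a median log2 difference of -0.15. Among the 115 hosts whose called deep regions were all higher, 69 windows could be tested. Of these 8 were higher, 13 lower and 48 not called, with a median of -0.13, near that of all windows, and 17 hosts had no 5′ peak in any list. Among the 19 hosts whose called deep regions were all lower, 10 windows could be tested, of which 0 were higher, 8 lower and 2 not called, with a median of -1.74. Another 7 of those hosts had no 5′ peak in any list.

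The promoters printed above show both cases. The ALK window was covered over 694, 736 and 608 bp in shT2, against 1872, 1567 and 850 bp in shNC3, which gave a log2 difference of -0.97 with an SE of 0.31 (adjusted p by limma = 0.056), so its start was not higher in shT2 while its body was. The PRKCA window was covered over 1801, 2368 and 1879 bp in shT2, against 3184, 3184 and 2880 bp in shNC3, and fell (-0.72, SE 0.10, adjusted p = 0.00413). The MSI2 window was covered over 1442 bp in each shT2 sample, against 899, 1442 and 1442 bp in shNC3 (0.06, SE 0.22, adjusted p = 0.85). In MYH9 the window was covered over 322, 1114 and 0 bp in shT2, against 3758 bp in each shNC3 sample (-3.07, SE 0.61, adjusted p = 0.0125). The RASA3 window was covered over 0 bp in each shT2 sample, against 2854, 2779 and 2844 bp in shNC3. The COL5A1 window was covered over 776, 1677 and 870 bp in shT2, against 3323 bp in each shNC3 sample (-1.63, SE 0.23, adjusted p = 0.00375). The body and the start thus fell together in MYH9, RASA3 and COL5A1, and went apart in PRKCA.

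**Figure D5:**
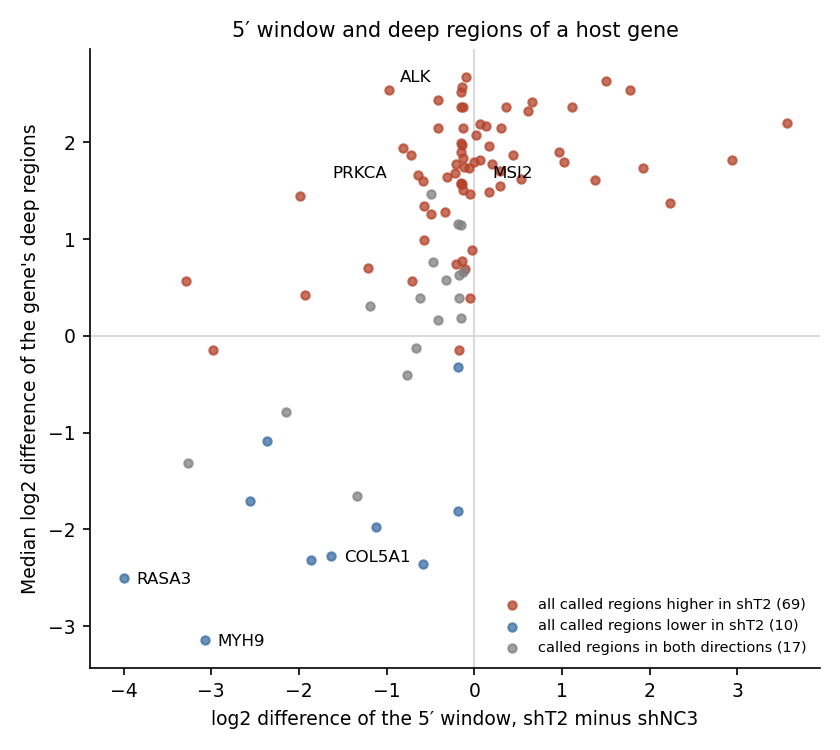
Log2 difference of the 5′ window (x axis) and median log2 difference of the deep regions (y axis), both shT2 minus shNC3, for the 96 hosts with 3 or more called regions and a tested window. Hosts whose called regions were all higher (69) spread on both sides of 0 along x, and those whose called regions were all lower (10) lie left of 0.

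SLIT3, DAB2IP, RPTOR and CHD2 were looked at after their values were seen, as further cases of a start and a body. SLIT3, a ligand of the Robo receptors, had 24 deep regions with 6 higher and 0 lower, covered over 55.0, 55.6 and 53.9 kb in shT2, against 34.8, 30.6 and 34.4 kb in shNC3. Its window was covered over 0, 0 and 286 bp in shT2, against 2580, 1733 and 2646 bp in shNC3 (-3.29, SE 0.43, limma adjusted p = 0.00301). Thus 6 of 24 deep regions rose while the start fell, and 18 did not pass. The 6 are a smaller share than the 33.6% that rose among all deep regions. In DAB2IP, another Ras GTPase-activating protein, the window was at 0 bp in each shT2 sample, against 2139, 1918 and 1055 bp in shNC3, and 1 deep region rose and 4 fell. In RPTOR, a subunit of mTOR complex 1, the window was covered over 680, 2196 and 733 bp in shT2, against 0 bp in each shNC3 sample, and 2 deep regions rose and 0 fell. CHD2, a chromatin remodeller, gained at the start (698, 419 and 430 bp in shT2, against 0 bp in each shNC3 sample) and in all 3 deep regions.

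Hosts were then grouped by gene lists, whose members were chosen with earlier results of these data known. Among the hosts, ALK, RET, INSR and CELF5 each stand in 2 of the lists described. Counts over all regions of a list are to be read against the 33.6% of deep regions that rose and the 10.6% that fell. Counts where both hairpins had a peak are to be read against 13.8% and 5.74%. Those are the shares of the 2594 such deep regions that rose and fell. Genes of the noradrenergic neuroblastoma state contributed 43 deep regions in 7 hosts, of which 37 rose, 4 fell and 2 did not pass. Their median log2 difference was 2.25 over all 43, and it was 1.55 where both hairpins had a peak (9 regions, of which 4 rose and 3 fell). Most came from 3 genes. Besides ALK, all 9 regions of MEIS2 and all 8 of ZNF536 rose, both genes of transcription factors. The MEIS2 regions were covered over 10.7, 10.3 and 11.9 kb in shT2, against 0, 0 and 0.377 kb in shNC3, while the gene's start was fully covered in all 6 samples. The ZNF536 regions were covered over 14.5, 14.9 and 10.6 kb in shT2, against 0.622, 0.756 and 0 kb in shNC3. Against the rest of the list, both regions of RET, the GDNF receptor kinase (adjusted p by limma 0.042 and 0.0369), and both of PBX3, a homeobox gene, fell. The RET regions were covered over 0.58, 0.404 and 0.93 kb in shT2, against 3.03, 1.16 and 2.24 kb in shNC3. RET and PBX3 were named after their values were seen. Of the 4 regions that fell, 2 did so at equal depth and 1 without scaling.

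Genes of the mesenchymal neuroblastoma state contributed 15 deep regions in 4 hosts, of which 1 rose, 12 fell and 2 did not pass. All 15 could be tested at equal depth, where 1 rose and 12 fell. Their median log2 difference was -2.21 over all 15, and it was -0.00 where both hairpins had a peak (5 regions, of which 1 rose and 2 fell). Here 9 of the 12 came from COL5A1, 2 from LTBP2 and 1 from LTBP1, both of the latent TGF-beta binding protein family. The LTBP2 regions were covered over 0 kb in each shT2 sample, against 3.77, 3.09 and 4.22 kb in shNC3. The LTBP1 region (chr2:33278261-33279437) was listed at 0 bp in each shT2 sample, against the same 1177 bp in each shNC3 sample. The 1 region that rose lay in TEAD1, the DNA-binding partner of YAP.

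Receptor tyrosine kinases and their signalling genes had 94 deep regions in 14 hosts, of which 66 rose and 2 fell. Their median was 1.84 on the log2 scale, and it was 0.64 where both hairpins had a peak (35 regions, of which 7 rose and 2 fell). PRKCA and ALK supplied 47 of the 66. INSR, the insulin receptor gene, had 1 of 2 regions higher. That INSR region (chr19:7172659-7176924) was covered over 4266, 3990 and 2904 bp in shT2, against 0 bp in each shNC3 sample. At equal depth 65 regions of the list could be tested, of which 39 rose and 1 fell, and without scaling 67 of 94 rose and 0 fell. The list also holds GNB1, GNAO1 and CAMTA1, which encode G protein subunits and a transcription factor and not kinases.

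RNA-binding and RNA-processing genes had 77 deep regions in 18 hosts, of which 42 rose and 0 fell, with a median log2 difference of 1.52, and of 0.79 where both hairpins had a peak (51 regions, of which 16 rose and 0 fell). MSI2 supplied 17 of the 42. Of the 66 regions of the list tested at equal depth, 32 rose and 0 fell. The leading MSI2 region (chr17:57377416-57380673) was covered over 2654, 3258 and 3258 bp in shT2, against 0 bp in each shNC3 sample. RBFOX2, a splicing regulator named after its values were seen, had all 3 regions higher, covered over 8.41, 6.61 and 7.4 kb in shT2, against 0.721, 0 and 0 kb in shNC3.

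Chromatin and transcription regulators formed the largest list, with 217 deep regions in 31 hosts, of which 84 rose, 17 fell and 116 did not pass. Without scaling 84 rose and 10 fell, and of the 187 tested at equal depth 63 rose and 13 fell. Its median log2 difference was 0.94, and it was 0.46 where both hairpins had a peak (156 regions, of which 29 rose and 11 fell). In CUX1, a homeobox gene, 10 of 24 regions rose and 1 fell, and in ZFHX3, a zinc finger homeobox gene, 13 of 15 rose and 0 fell. The ZFHX3 regions were covered over 10.6, 14.1 and 10.9 kb in shT2, against 0.663, 0 and 0.369 kb in shNC3. No list had a peak within 2 kb of the gene's annotated 5′ end, and starts inside the gene were not looked at. Both regions of HDAC9, a histone deacetylase, rose. Its leading region (chr7:18573802-18576072) was covered over 2271, 1944 and 1792 bp in shT2, against 0 bp in each shNC3 sample. MAD1L1, with 25 regions of this list, acts in the spindle checkpoint and not on chromatin.

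Genes of axon guidance and neural adhesion had 59 deep regions in 16 of the 53 genes with room, of which 14 rose and 11 fell, with a median log2 difference of 0.24. With peaks of at least 5-fold enrichment 7 of 36 rose and 7 fell. Of the 44 regions with a peak in both hairpins 6 rose and 4 fell, and of the 55 tested at equal depth 13 rose and 9 fell. PLXNA4, a semaphorin co-receptor, lost coverage in all 3 of its regions, which were present in all 6 lists, and in 2 of them without scaling. Its leading region (chr7:132570853-132577507) was covered over 304, 540 and 367 bp in shT2, against 6508, 6231 and 5524 bp in shNC3, which gave a log2 difference of -3.53 with an SE of 0.16 (adjusted p by limma = 0.000346). The region of the synaptic adhesion gene NLGN1 (chr3:173491613-173492503) was listed at 0 bp in each shT2 sample, against 891 bp in each shNC3 sample, and that of SEMA6D, a semaphorin, at 0 bp in each shT2 sample, against 404, 448 and 445 bp in shNC3. At equal depth the SEMA6D region had a peak in under 3 lists and was not tested.

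Genes with cryptic exons that TDP-43 normally represses had 29 deep regions in 10 hosts, of which 9 rose and 3 fell, near the shares of all deep regions. The median log2 difference was 0.64, next to 0.61 for all deep regions. Where both hairpins had a peak (22 regions), 3 rose and 2 fell, and of the 26 tested at equal depth 8 rose and 4 fell. CELF5, a CELF family RNA-binding gene, held 1 region (chr19:3265346-3272046), covered over 6017, 6701 and 5621 bp in shT2, against 713, 698 and 329 bp in shNC3, which gave a log2 difference of 2.92 with an SE of 0.25 (adjusted p by limma = 0.000849). The CELF5 start moved the same way, by 1.61 (SE 0.45, adjusted p = 0.0373). PXDN, a peroxidase of the extracellular matrix, held 13 regions with 3 higher and 2 lower. The leading PXDN region (chr2:1686250-1687642) was covered over 864, 721 and 1393 bp in shT2, against 0 bp in each shNC3 sample.

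Common fragile site genes, which are very long, held 8 deep regions in 4 of 16 genes, of which 4 rose and 1 fell, and with a peak in both hairpins 1 of 4 rose and 0 fell. The SDK1 region (chr7:4180344-4180975), in an adhesion gene and 879 kb from its 5′ end, was covered over 472, 616 and 573 bp in shT2, against 0 bp in each shNC3 sample. The LRP1B region (chr2:141278028-141278700) was listed at 0 bp in each shT2 sample, against 673 bp in each shNC3 sample. The region in AUTS2, a gene of neural development, 331 kb from the 5′ end, had 1625, 1077 and 1233 bp in shT2, against 0, 290 and 0 bp in shNC3 (log2 difference 2.37, SE 0.46, adjusted p = 0.0107). Ion channel and receptor genes held 9 deep regions in 5 of 43 genes with room, of which 4 rose and 0 fell. All 4 had no peak in shNC3, and of the 5 with a peak in both hairpins 0 passed the test. The CACNA2D2 region was covered over 531, 406 and 429 bp in shT2, against 0 bp in each shNC3 sample. The leading CACNA1C region was covered over 337, 352 and 335 bp in shT2, against 0 bp in each shNC3 sample. In KCNT1, a potassium channel gene, 546, 352 and 590 bp were covered in shT2, against 0 bp in each shNC3 sample. At equal depth 6 ion channel regions could be tested, of which 1, in KCNT1, rose, and the regions of CACNA1C and CACNA2D2 had a peak in under 3 lists. With peaks of at least 5-fold enrichment 2 could be tested, of which 0 rose and 1 fell, and the median turned to -1.33.

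Deep regions also covered small RNA genes, 12 for microRNAs and 7 for small nucleolar RNAs, all described after their values were seen. Among the microRNA genes 3 lay in regions that rose, 1 in a region that fell and 8 in regions that did not pass the test. Among the small nucleolar RNA genes 4 lay in regions that rose, 2 in regions that fell and 1 in a region that did not pass. Of all deep regions 33.6% rose and 10.6% fell, and a difference from these shares was not tested. The 3 microRNA genes include a pair in the same region. Of the 2 small nucleolar RNA genes in regions that fell, 1 lies in the FBXL18 region, whose call was lost in 14 of 17 alternative settings. MIR342 and MIR151B lie in 1 region of EVL, an actin regulator (chr14:100108415-100109911), which was covered over 436, 1497 and 484 bp in shT2, against 0 bp in each shNC3 sample. The region of MIR218-2, within SLIT3 (chr5:168763884-168769114), was covered over 5231 bp in each shT2 sample, against 4030, 4617 and 4311 bp in shNC3, a scaled log2 difference of 0.12 (SE 0.10, adjusted p = 0.398). MIR6894, in KDM5C, a histone demethylase gene, lay in a region covered over 1635 bp in each shT2 sample, against 616, 740 and 840 bp in shNC3 (0.85, SE 0.18, adjusted p = 0.0125). MIR4785, in RBMS1, lay in a region covered over 2701, 3108 and 2719 bp in shT2, against 3734, 2978 and 3423 bp in shNC3 (-0.38, SE 0.07, adjusted p = 0.00858), and these ranges overlap before scaling. SNORD65C, in IGF2BP3, lay in a region covered over 1497, 1877 and 1823 bp in shT2, against 0 bp in each shNC3 sample. SNORA99, in GATA4 on chromosome 8, lay in a region that fell, covered over 873, 0 and 297 bp in shT2, against 2929, 2629 and 1907 bp in shNC3 (-2.58, SE 0.62, limma adjusted p = 0.023). A peak over a small RNA gene inside a host does not say whether that RNA was made.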

How the data were processed

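DRIP-seq was run on 6 samples, 3 per hairpin, each with 1 deposited list of narrow peaks. Per the submitters' processing notes, the tools were MACS2 2.2.6, Bowtie2 2.4.4 and SAMtools, and the build was hg38. Each deposited list gives the authors' integer score, the fold enrichment (a linear ratio) and the −log10 p and q values per peak, with q up to 0.01. The sources used here do not give the control behind the peaks. The lists hold no counts, so covered length was tested, which measures the extent of called peaks and not signal strength. A log2 difference on log2(scaled bp + 200) understates the change of short regions. Gene ends came from the RefSeq GRCh38.p14 table (19974 protein-coding and 18177 lncRNA genes). They were the outer ends of each gene's annotated span, and starts inside that span were not considered. Exons and the sequence of the regions were not used here, and strand was known only for genes in the promoter table. A list counted as present with an overlap of 1 bp.

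Depth was recovered by solving each peak's fold and p for whole fragments, which worked for 99.62 to 99.90% of peaks (tolerance 0.002 in −log10 p). Thinning to equal depth removed peaks but left widths as deposited. limma 3.58.1 in R 4.3.3 (trend and robust) tested all 34776 regions, and separately 7303 windows of 2 kb on either side of 5′ ends, and was tested on simulated data. Python 3.11.15, pandas 2.3.3 and bedtools 2.31.1 were used, and bedtools also gave 3743 regions.

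The regions and gene lists were chosen with earlier results of these data known. Named regions were the 8 per direction with the largest difference among called regions without overlap between groups, the 6 longest in all 6 lists, the 2 nearest the 20 kb limit on each side, the 6 hosts with most regions, and up to 3 hosts per list by p. The list of RNA-binding genes also held IMMP2L, a mitochondrial peptidase gene without a deep region. Same-numbered samples of the hairpins did not deviate together (correlations -0.013, -0.024 and -0.015), so replicate numbers were not used as pairs. Some named regions and 1 gene list are not reported here. Alternatives are in the closing section.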

Additional observations from a re-analysis of the deposited data

How the results depend on the processing

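Over all deep regions more rose than fell, and both shares were higher in shT2, under each alternative run, and sizes moved with the peaks and the limit used. The number of deep regions was 1493 with peaks of at least 5-fold enrichment, 937 at 50 kb from gene ends and 7727 at 10 kb. Under these 3 settings 432, 407 and 2188 regions rose and 183, 104 and 854 fell. Regions in shT2 alone numbered 313, 311 and 1470, and 594 at equal depth. Regions in shNC3 alone numbered 135, 78 and 469, and 158 with −log10 q of at least 5. The difference in the share of covered length (1.69 percentage points) was 1.1 with 5-fold peaks, 1.5 with equal numbers of peaks, 1.37 at equal depth, 1.83 with a merge gap of 1000 bp, 0.591 at 50 kb and 2.45 at 10 kb. The difference in the share of peaks (3.18) was 1.74, 2.3 and 2.31 under the first 3 of these, 1.52 at 50 kb and 3.71 at 10 kb. These alternatives for the share of peaks were chosen after seeing the data. Without 1 replicate, 1056 to 1286 regions rose and 329 to 362 fell, and the differences in share were 1.59 to 1.75 and 2.98 to 3.35. With the replicate number as a block, 1202 rose and 363 fell, and the block ended the call of the FBXL18 region and of 1 region each in RET and DAB2IP, among those looked at. The SIPA1L3 region reversed to 0.12 without scaling (limma adjusted p = 0.00353) and the FBXL18 region to 0.16 with fold enrichment as the value (adjusted p = 0.322). Among the other called regions named by rule, AUTS2 lost its call in 2 settings and CACNA1C and CACNA2D2 in 1 each. Of 49 named regions 20 could not be tested in at least 1 of 17 settings, 20 of them with 5-fold peaks and 3 (CACNA1C, CACNA2D2 and SEMA6D) at equal depth. With 5-fold peaks the ion channel list turned to 0 higher and 1 lower of 2, and the axon guidance list to 7 each way. The cause of these shifts was not tested. Requiring 200 bp of overlap changed no count, but the narrowest region was 294 bp wide, so this setting was a weak check. Depth limits what the shNC3 lists can show: a region at 0 bp has no called peak, which need not mean no R-loop.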
